A study of Mus musculus with 20 samples.

Results

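The active zone is the patch of presynaptic membrane where synaptic vesicles are docked, made ready for fusion and released. Its scaffold is built from large proteins. Bassoon (Bsn) and Piccolo (Pclo) are its giant scaffolds, the RIM proteins (Rims1, Rims2) tether vesicles and calcium channels, and ELKS2/CAST (Erc2) binds RIM, Bassoon and Piccolo. Munc13-1 (Unc13a) primes docked vesicles, Snap25 is a membrane SNARE whose zippering with its partners drives fusion, synaptotagmin-1 (Syt1) is the vesicle's calcium sensor, and synapsin-1 (Syn1) ties vesicles to one another in the reserve pool. The 9 genes were taken by name from a table of 57180 Ensembl identifiers. All 9 were found, and all 9 passed the filter on low counts in every comparison.

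RNA was measured in tissue punches of 2 mouse brain regions, the paraventricular thalamic nucleus (PVT), a midline thalamic relay, and the posterior insular cortex (pIC), a cortical area for pain and body state. STZ mice had been given 1 intraperitoneal injection of 200 mg/kg streptozotocin, a toxin of pancreatic beta cells, as a model of painful diabetic neuropathy, and control mice had received vehicle. Tissue of both treatments was taken at week 7. There were 6 STZ and 4 control libraries for each region, 20 in all, of poly(A) RNA. The sources used here give no strain, age or sex, and do not say whether each library is 1 animal. P-values therefore measure the spread between these libraries, which may be partly technical. The model is a single chemical lesion, and a punch holds every cell type of the dissected block. A lower level of a neuronal RNA in a punch can come from fewer neurons or from less RNA in each neuron, and these cannot be told apart.

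Total counts per library were between 17.9 M and 25.5 M, and single libraries held at least 1450 reads of each of the 9 genes. Levels are given as CPM, counts normalised to library size after TMM scaling over all 20 libraries. Of 12 thalamus markers, 12 were called higher in PVT than in pIC of STZ mice and 9 in control mice (adjusted p under 0.05, edgeR). Of 12 cortical excitatory markers, 10 were called lower in STZ and 9 in control mice. All 12 of each list had that direction in both sets of mice. The thalamus sum varied widely within PVT. It was 436, 476, 461, 740, 1927.5 and 1325 CPM in PVT STZ replicates 1 to 6. It was 1010, 424, 922 and 613 CPM in PVT control replicates 1 to 4, against 89.3 to 148 CPM in pIC STZ and 101 to 120 CPM in pIC control libraries. Slc17a7, the cortical vesicular glutamate transporter, was still present in PVT punches, at 233 to 593 CPM in STZ and 55.5 to 559 CPM in control libraries. PVT control replicate 4 stood apart. It held pituitary transcripts with a summed level of 15236 CPM over 8 markers, against 2.38 to 11.7 CPM in the other PVT libraries, and its summed level of cortical excitatory markers, 304 CPM, was the lowest of the PVT libraries. STZ libraries also stood apart. The sum of 10 hypothalamus markers was 309, 944 and 624 CPM in PVT STZ replicates 4, 5 and 6 and 34.1 to 59.4 CPM in PVT STZ replicates 1 to 3, against 25.7 to 238 CPM in PVT control libraries. The highest level of Pmch, a neuropeptide of the lateral hypothalamus, was 310 CPM in PVT STZ and 0.808 CPM in PVT control libraries. Sums of 10 striatal markers ran from 296 to 3731 CPM in PVT STZ and from 359 to 1581 CPM in PVT control libraries. In pIC STZ replicate 3 the striatal sum was 3687 CPM (409 to 1420 CPM in the other pIC libraries), the choroid plexus sum 144 CPM (6.96 to 24.9 CPM) and the oligodendrocyte sum 6803 CPM (3117 to 4846 CPM), and its cortical excitatory sum of 1942 CPM was the lowest of pIC.

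The 9 genes lie on 9 different chromosomes. RefSeq promoters (250 bases before to 50 bases from the gene's start) of build GRCm38.p6 were at hand for 7 of them, and the others were Rims2 and Snap25. They were searched on both strands for TGACG (part of the cAMP response element), GGGCGG (the GC box), TTCAGCA and GGACAG (parts of RE1, the element that the neuronal gene repressor REST recognises) and TATAAA (the TATA box). Shown are Syn1, whose promoter is a long-used example of a neuron-restricted one, and Rims1 and Bsn, the pair whose levels moved most alike. Capitals mark matches to any of these motifs, on either strand.
Syn1, chrX:20920869-20921168, minus strand: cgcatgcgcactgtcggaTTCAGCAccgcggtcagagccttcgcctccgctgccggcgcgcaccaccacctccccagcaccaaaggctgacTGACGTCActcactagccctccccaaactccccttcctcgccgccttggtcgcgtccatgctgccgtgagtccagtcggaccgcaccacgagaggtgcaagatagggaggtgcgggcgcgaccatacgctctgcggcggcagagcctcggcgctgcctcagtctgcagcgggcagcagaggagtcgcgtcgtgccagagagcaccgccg
Rims1, chr1:22806109-22806408, minus strand: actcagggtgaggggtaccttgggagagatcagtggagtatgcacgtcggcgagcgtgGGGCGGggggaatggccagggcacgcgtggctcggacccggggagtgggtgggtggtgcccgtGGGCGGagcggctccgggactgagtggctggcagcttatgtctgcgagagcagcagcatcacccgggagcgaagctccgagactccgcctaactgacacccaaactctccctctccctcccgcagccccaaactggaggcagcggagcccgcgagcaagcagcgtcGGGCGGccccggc
Bsn, chr9:108190334-108190633, minus strand: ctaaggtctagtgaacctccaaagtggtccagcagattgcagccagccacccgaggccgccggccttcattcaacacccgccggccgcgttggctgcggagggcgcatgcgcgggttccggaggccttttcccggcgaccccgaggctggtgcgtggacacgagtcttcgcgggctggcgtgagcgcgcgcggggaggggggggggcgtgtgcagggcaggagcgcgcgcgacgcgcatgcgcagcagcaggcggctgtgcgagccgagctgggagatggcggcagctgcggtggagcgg

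The Syn1 window held TTCAGCA at −232 and TGACG on both strands at −159 and −156, 2 matches that overlap each other, counting the gene's first base as 0. The Rims1 window held GGGCGG at −192, −129 and 37. No searched motif lay in the Bsn window, although 72.3% of its bases were G or C, against 69.3% in Rims1, 68.3% in Syn1 and a median of 52.7% over 32851 promoters. Of those promoters, 35.7% held GGGCGG, 22.2% GGACAG, 20.8% TGACG, 13.6% TATAAA and 4.7% TTCAGCA. A match is a description of the letters and not a bound site.

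Levels of the 9 genes differed widely. Per kilobase of exon (the union of annotated exons), Snap25 had the highest level in all 4 groups, at 263 ± 32.7 CPM per kilobase in PVT STZ, 234 ± 71.9 in PVT control, 541 ± 61.3 in pIC STZ and 560.0 ± 14.8 in pIC control libraries (SD, n = 6, 4, 6 and 4). Syt1 came next, at 135 ± 12.4 in PVT STZ, 124 ± 24.2 in PVT control, 219 ± 18.3 in pIC STZ and 229 ± 14.1 in pIC control libraries, and Syn1 followed with 104 ± 9.97, 98.1 ± 20.3, 186 ± 27.9 and 198 ± 17.1. The mean of Syt1 exceeded that of Syn1 by more than either SD in each group. The scaffold and priming genes lay well below, with group means of 10.8 to 34.6 CPM per kilobase for Rims1, Bsn and Unc13a. Those of Erc2 were 8.78 to 18.1, those of Rims2 7.57 to 10.3, and those of Pclo 6.31 to 11.1. In PVT control libraries the means of Rims1, Bsn and Unc13a were closer to one another than the smallest of their SDs, and in PVT STZ libraries Rims1 and Unc13a, at 15.8 ± 2.52 and 12.8 ± 1.66, were farther apart than either SD, with Bsn between them at 14.1 ± 1.88. Rims2 was above Pclo in PVT. In pIC it was below Pclo by more than either SD in control libraries, and by less than the SD of Pclo in STZ libraries.

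**Figure D1:**
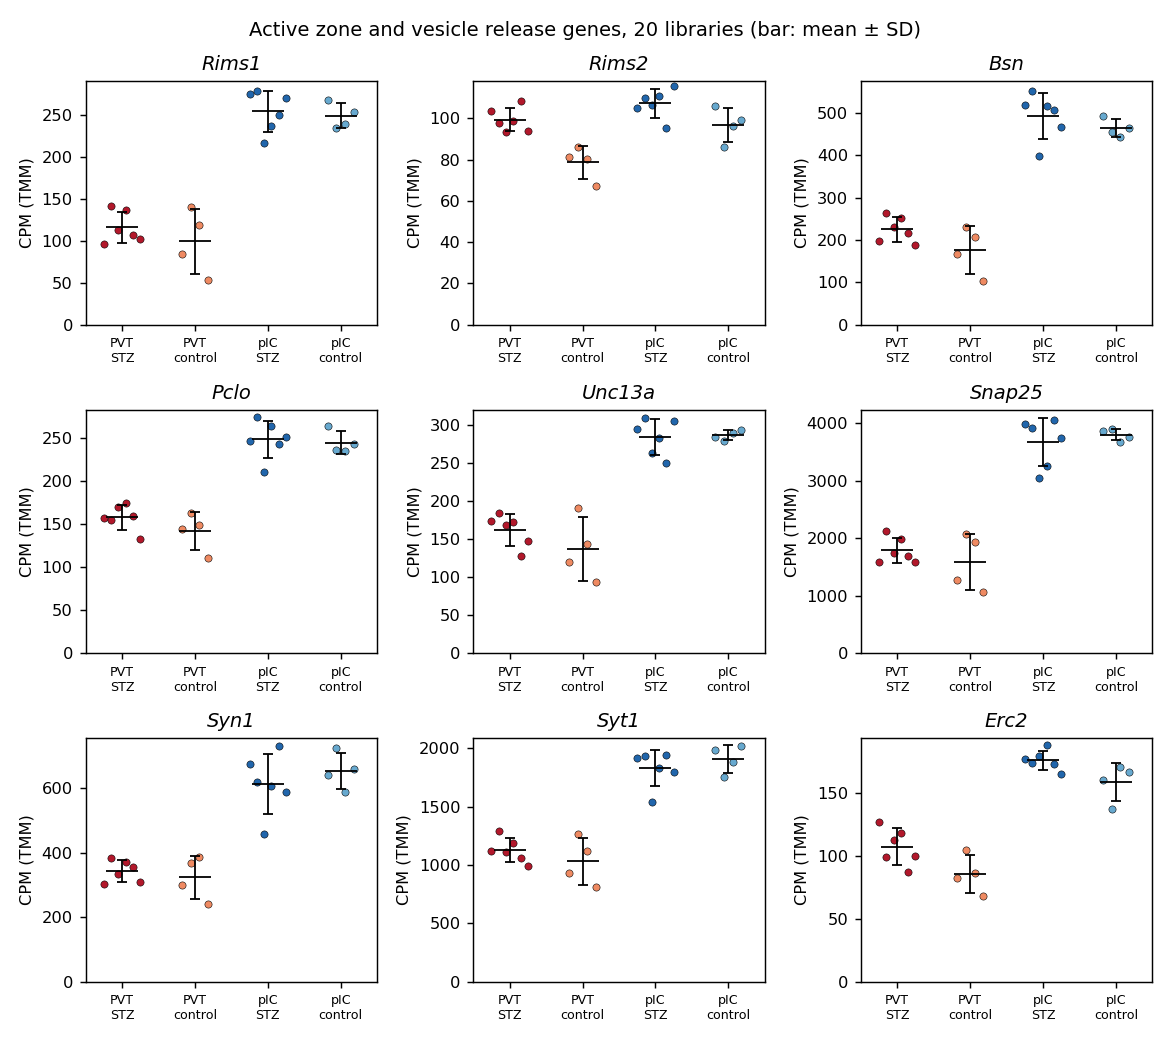
Level of each of the 9 genes (vertical axis, TMM-scaled CPM, starting at 0) in PVT STZ, PVT control, pIC STZ and pIC control libraries. Points are libraries and bars are the mean and SD. Apart from Rims2, PVT libraries lie below pIC libraries for every gene, and the lowest PVT point is a control library for all 9.

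The comparison of STZ with control mice in PVT asked whether diabetic neuropathy changed the release machinery in this thalamic nucleus. Of the 9 genes, 1 passed the test. Rims2 (ENSMUSG00000037386), a RIM scaffold that binds vesicles and calcium channels, was higher with a log2 fold change of 0.34 (SE 0.073), which passed with an adjusted p of 0.042 (edgeR's quasi-likelihood test with Benjamini-Hochberg adjustment over 17076 genes). Among all genes tested, 2.07% were called, 0.474% as higher and 1.59% as lower. Higher genes were thus 22.9% of the calls, and 12.2% of them with upper quartile scaling. Each of the other 8 genes had a positive fold change as well, of 0.08 to 0.35, and did not pass. The median of the 9 was 0.227, against 0.00381 over all genes, 50.8% of which had positive fold changes.

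Rims2 was at 93.4 CPM in the lowest, 98.4 CPM in the median and 108 CPM in the highest PVT STZ library. Its 4 PVT control libraries were at 81.2, 86.0, 80.2 and 67.1 CPM. Every PVT STZ library was thus above every PVT control library, and Rims2 was the 1 gene of the 9 for which the groups did not overlap. Over all genes tested, groups did not overlap for 6.2%. The call was lost in 9 of the 10 fits that left out 1 PVT library, and over all 10 the fold change was 0.27 to 0.38 and the adjusted p 0.0437 to 0.0918. It held only without PVT control replicate 2. Without PVT control replicate 4, the library with pituitary transcripts, the fold change was 0.27 and the adjusted p 0.0918. It was also lost with the neuron marker score as a covariate, at 0.28 with an adjusted p of 0.0927. PVT STZ replicates 4, 5 and 6, the libraries with the highest hypothalamus sums, had 98.9, 108 and 94.1 CPM of Rims2. PVT STZ replicates 1, 2 and 3, with striatal sums of 3731, 1253 and 2749 CPM, had 104, 97.9 and 93.4 CPM of Rims2. Without PVT STZ replicate 4, 5 or 6 the fold change was 0.34, 0.31 or 0.35 and the adjusted p 0.0882, 0.0705 or 0.0523 (edgeR). The part of hypothalamic or striatal tissue in the Rims2 values was not tested.

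Rims1 (ENSMUSG00000041670), the closest relative of Rims2, did not share this separation. It was at 96.9, 110.2 and 141 CPM in the lowest, median and highest PVT STZ library and at 85.1, 141, 119 and 53.3 CPM in PVT control libraries. The groups overlapped over most of their range, and the control libraries spanned from the lowest value of the region to almost its highest. The fold change was 0.23 (SE 0.235, adjusted p = 0.666, edgeR). For the pair of giant scaffolds, Bsn (ENSMUSG00000032589) was at 189, 224 and 265 CPM in the lowest, median and highest STZ library, against 167, 231, 206 and 103 CPM in the control libraries. Pclo (ENSMUSG00000061601) was at 133, 158 and 175 CPM in STZ libraries and at 144, 163, 149 and 111 CPM in control libraries. Both overlapped between groups, with fold changes of 0.35 (SE 0.197, adjusted p = 0.395, edgeR) for Bsn and 0.16 (SE 0.104, adjusted p = 0.471) for Pclo.

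Erc2 (ENSMUSG00000040640), the ELKS protein specific to brain, had the second smallest p of the 9. It was at 87.4, 106 and 127 CPM in the lowest, median and highest PVT STZ library and at 82.6, 105, 86.2 and 68.1 CPM in PVT control libraries. Control replicate 2 lay among the STZ libraries and the other controls below all of them. The fold change was 0.33 (SE 0.126, unadjusted p = 0.0232, adjusted p = 0.203, edgeR). An unadjusted p under 0.05 was seen for 17.8% of all genes tested and for 2 of the 9.

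For the priming factor Unc13a (ENSMUSG00000034799), PVT STZ libraries were at 127, 171 and 183 CPM (lowest, median, highest) and PVT control libraries at 119.9, 191, 143 and 93.3 CPM. The SNARE gene Snap25 (ENSMUSG00000027273) was at 1588, 1718 and 2126 CPM in STZ and at 1283, 2071, 1930.3 and 1066 CPM in control libraries. The calcium sensor Syt1 (ENSMUSG00000035864) was at 993, 1118 and 1289.9 CPM in STZ and at 929.6, 1267, 1121 and 812 CPM in control libraries. In each of these genes control replicate 2 was within or above the STZ range and control replicate 4 below it. The vesicle-tethering gene Syn1 (ENSMUSG00000037217) was at 303, 345 and 384 CPM in STZ and at 299, 368, 387 and 241 CPM in control libraries, with the smallest fold change of the 9 at 0.08 (SE 0.125, adjusted p = 0.773, edgeR). The adjusted p was 0.512 for Unc13a, 0.623 for Syt1 and 0.667 for Snap25.

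The spread among PVT control libraries was large and shared by the 9 genes. Control replicate 4 was the lowest of the 10 PVT libraries for 9 of 9 genes, with a mean deviation from its group of −0.46 on the log2 scale, and control replicate 2 was the highest of its group for 8, with a mean deviation of 0.36. The median fold change of the 9 genes ran from 0.0582 without control replicate 4 to 0.381 without control replicate 2, and that of Syn1 was −0.03 without control replicate 4. Levels of cortical excitatory markers varied alongside. Their summed level was 304 CPM in control replicate 4 and 520 CPM in control replicate 1, which had negative mean deviations, and 1208 and 1147 CPM in control replicates 2 and 3, which had positive ones. Among STZ libraries the pair with the highest cortical sums, replicates 2 and 4 at 1299 and 1163 CPM, also had the highest mean deviations, 0.13 each. The part of cortical tissue in the differences was not tested.

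**Figure D2:**
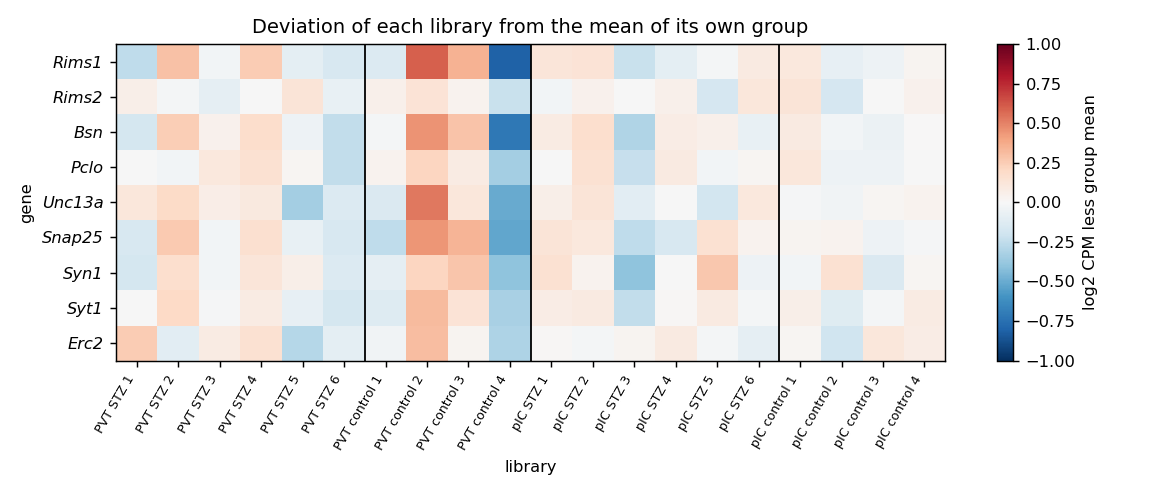
Deviation of each library's log2 CPM from the mean of its own group (colour), for the 9 genes (rows) in 20 libraries (columns, in the order PVT STZ, PVT control, pIC STZ, pIC control). In PVT control replicates 2 and 4 all 9 genes deviate in opposite directions, by a mean of 0.36 and −0.46.

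None of the other 75 presynaptic genes passed in PVT by edgeR. They comprised 18 further active zone genes, 17 SNARE and fusion genes, 11 calcium sensors, 15 vesicle proteins and 14 genes of vesicle retrieval. Of these, 63 had positive fold changes with a median of 0.122, 9 had an unadjusted p under 0.05, and the smallest adjusted p was 0.126. That value belonged to Erc1, the broadly expressed ELKS relative of Erc2 (log2 fold change 0.26, SE 0.0804, named after its value was seen), whose level was 48.3 to 52.7 CPM in STZ and 33.9 to 45.6 CPM in control libraries. DESeq2 called 1 of the 75, the Munc13 isoform Unc13c, with an adjusted p of 0.0309. Of the 17076 genes given to both tests, it called 904 and edgeR 353. Of 15 general neuron markers 0 passed by edgeR (6 with an unadjusted p under 0.05, and 2 called by DESeq2, Map2 and Celf4), and their median was 0.08.

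Markers of other cells also differed between these PVT groups. The summed level of 10 ependymal genes was 64.7 to 90.9 CPM in STZ and 105 to 143 CPM in control libraries, with 6 of 10 called lower and none at 0 in any PVT library. Choroid plexus genes summed to 1343 to 3352 CPM in STZ and 2969 to 6018 CPM in control libraries (0 of 10 called by edgeR, 8 with an unadjusted p under 0.05, 4 called by DESeq2, Kcne2, Otx2, Aqp1 and Kcnj13). Oligodendrocyte genes summed to 6876 to 9568 CPM in STZ and 8462 to 10457 CPM in control libraries, with 3 of 10 called lower. Summed neuron markers were 5624 to 6493 CPM in STZ and 4999 to 5982 CPM in control libraries. Regional neuron markers had mostly positive fold changes, with 0 called in each list (edgeR). They were positive for 10 of 10 striatal markers (median 0.67), 10 of 12 thalamus markers (0.45), 8 of 12 cortical excitatory markers (0.13) and 5 of 6 GABA neuron markers (0.20). The part of these cells and tissues in the values of the 9 genes was not tested, apart from the neuron score given above.

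In pIC the same comparison gave no call among the 9 genes (edgeR; DESeq2 also called 0), against 1.4% of 16189 genes tested. An unadjusted p under 0.05 was seen for 2 of the 9 and for 11.8% of all genes. The groups overlapped for all 9, and did not for 4.28% of all genes. Fold changes ran from −0.09 for Syn1 to 0.15 for Erc2, 5 of 9 were positive, and the median was 0.0229. Erc2 and Rims2 had the 2 largest. Rims2 was at 95.3, 108 and 116 CPM in the lowest, median and highest pIC STZ library and at 106, 85.9, 96.1 and 99.3 CPM in pIC control libraries, which overlapped, with a fold change of 0.15 (SE 0.0669, adjusted p = 0.404, edgeR). Erc2 was at 165, 176 and 188 CPM in pIC STZ libraries and at 160.2, 138, 171 and 167 CPM in pIC control libraries, with a fold change of 0.15 (SE 0.0624, adjusted p = 0.358).

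The remaining 7 genes had fold changes of −0.09 to 0.09 in pIC. Snap25, for example, was at 3057, 3834 and 4061 CPM in the lowest, median and highest STZ library and at 3867, 3902, 3679 and 3767 CPM in control libraries, with a fold change of −0.05 (SE 0.0762, adjusted p = 0.864, edgeR). Of 6 pIC STZ libraries, replicate 3, the library with the high striatal sum, was the lowest of the region for 6 of the 9 genes. Without it 0 of the 9 passed, and the median fold change was 0.0634. The part of striatal tissue in these values was not tested. Over the 9 genes the coefficient of variation among control libraries was 10.3% to 38.7% in PVT and 2.16% to 9.36% in pIC. Of the other 75 presynaptic genes 0 passed (edgeR, 1 with an unadjusted p under 0.05; DESeq2 also 0), and 39 had positive fold changes.

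**Figure D3:**
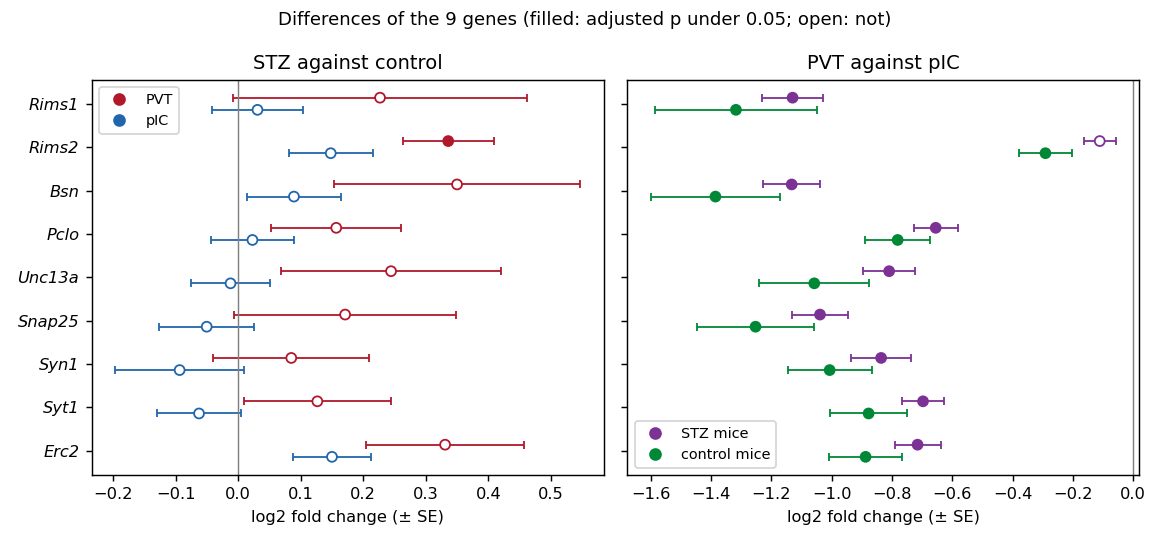
Log2 fold changes (horizontal axis, bars SE) of the 9 genes for STZ against control (left, PVT above pIC) and PVT against pIC (right, STZ mice above control mice). Filled points have an adjusted p under 0.05. For STZ, Rims2 in PVT at 0.34 is the only filled point, and for the regions every point is negative and only Rims2 in STZ mice, at −0.11, is open.

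Whether the STZ effect differed between the regions was tested as an interaction over all 20 libraries. The difference, PVT effect minus pIC effect, was positive for 9 of 9 genes, from 0.12 for Pclo to 0.25 for Bsn, and passed for 0 of them, with an adjusted p of 1 for each (edgeR; none of the 9 had an unadjusted p under 0.05, and DESeq2 called 0 of the 9). A positive difference was also seen for 49.9% of all genes, 65 of the other 75 presynaptic genes and 15 of 15 neuron markers. The 9 genes varied together across libraries, so their signs are not separate observations. For Rims2 the difference was 0.17 (SE 0.1). Over all 17427 genes 0% were called by edgeR and 4.02% had an unadjusted p under 0.05. The call of Rims2 in PVT and its lack in pIC are therefore not shown to differ.

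The comparison of PVT with pIC described how far the release machinery differed between the dissections with and without the disease. In STZ mice 8 of 9 genes were called lower in PVT, with log2 differences of −0.66 to −1.13. The median of the 9 was −0.81, against 0.0225 over 16489 genes, of which 23.1% were called lower. In control mice, which share no library with the STZ mice, 9 of 9 were lower, at −0.29 to −1.39, with a median of −1.01, against 0.0247 over 16614 genes, of which 22.4% were called lower. The groups did not overlap for 8 of the 9 genes in STZ mice (27.8% of all genes) and for 8 in control mice (45.4%). None of the 9 passed against a minimum fold of 2 in either set of mice (glmTreat). Without PVT control replicate 4 all 9 were called in control mice, with a median of −0.90. In STZ mice 8 were called without pIC STZ replicate 3, with a median of −0.83, and 8, 9 and 8 without PVT STZ replicate 4, 5 or 6, with medians of −0.84, −0.76 and −0.79.

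The differences were largest for Bsn and Rims1. In STZ mice they were −1.13 for Bsn (SE 0.0945, adjusted p = 1.94e-06, edgeR) and −1.13 for Rims1 (SE 0.1, adjusted p = 3.13e-06). In control mice Bsn was at 167, 231, 206 and 103 CPM in PVT and at 493, 455, 444 and 465 CPM in pIC, a log2 difference of −1.39 (SE 0.215, adjusted p = 8.71e-04, edgeR). Rims1 was at 85.1, 141, 119 and 53.3 CPM in PVT and at 269, 235, 240.2 and 254 CPM in pIC, a difference of −1.32 (SE 0.268, adjusted p = 0.00459). The highest PVT library was far below the lowest pIC library for both genes.

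Snap25 was lower by a similar margin in STZ mice (log2 difference −1.04, SE 0.093, adjusted p = 3.2e-06, edgeR). In control mice it was at 1283, 2071, 1930.3 and 1066 CPM in PVT and at 3867, 3902, 3679 and 3767 CPM in pIC, with no overlap (−1.25, SE 0.193, adjusted p = 6.19e-04). Unc13a differed by −0.81 in STZ mice (SE 0.0854, adjusted p = 1.02e-05) and −1.06 in control mice (SE 0.183, adjusted p = 0.00135). Its PVT control libraries, at 119.9, 191, 143 and 93.3 CPM, were all below its pIC control libraries, at 284, 279, 289 and 293 CPM. Syn1 differed by −0.84 in STZ mice (SE 0.099, adjusted p = 2.3e-05) and −1.01 in control mice (SE 0.139, adjusted p = 2.26e-04).

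The smaller differences were those of Syt1, Erc2 and Pclo. In STZ mice they were −0.70 for Syt1, −0.72 for Erc2 and −0.66 for Pclo, with adjusted p-values of 8.14e-06, 1.1e-05 and 1.42e-05 (edgeR). Syt1 was at 929.6, 1267, 1121 and 812 CPM in PVT and at 1983, 1756, 1878 and 2018 CPM in pIC of control mice, which did not overlap (log2 difference −0.88, SE 0.128, adjusted p = 2.81e-04, edgeR). Erc2 differed by −0.89 (SE 0.12, adjusted p = 1.88e-04) and Pclo by −0.78 (SE 0.107, adjusted p = 1.92e-04) in control mice.

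Rims2 was the gene nearest to equal levels. In STZ mice it was at 93.4, 98.4 and 108 CPM in the lowest, median and highest PVT library and at 95.3, 108 and 116 CPM in pIC, with a difference of −0.11 (SE 0.0531, adjusted p = 0.1, edgeR). It passed there without PVT STZ replicate 5 (adjusted p = 0.0305) or without pIC STZ replicate 5 (adjusted p = 0.0277). Control mice had 81.2, 86.0, 80.2 and 67.1 CPM in PVT and 106, 85.9, 96.1 and 99.3 CPM in pIC. The lowest pIC value lay just under the highest PVT value, and the difference was −0.29 (SE 0.0892, adjusted p = 0.0193, edgeR). It did not pass without pIC control replicate 1 (−0.25, adjusted p = 0.0633) or without pIC control replicate 4 (−0.28, adjusted p = 0.0514).

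The medians of the other presynaptic genes were negative too. In STZ mice 46 of the 75 were called lower in PVT and 8 higher, with a median of −0.341. In control mice 51 were called lower and 10 higher, with a median of −0.487. Counts of lower and higher genes in these lists are calls (adjusted p under 0.05, edgeR). Of the calls over all genes, 52.9% were higher in PVT in STZ mice and 53.2% in control mice. No SNARE or fusion gene of 17 was called higher. In STZ mice 15 of these were lower, among them Vamp2, the vesicle SNARE (−0.42), and Prrt2, a fusion regulator (−1.02). In control mice 14 were lower, among them the SNAP proteins Napa (−0.59) and Napb (−0.78), which recycle SNAREs with NSF. Of the 18 further active zone genes 10 were lower and 3 higher in STZ mice, and 13 were lower and 3 higher in control mice. Unc13b, the Munc13-2 isoform, differed by −0.90 in STZ and −1.21 in control mice, while Ppfia4, a liprin-alpha, was higher by 0.81 in STZ and 0.83 in control mice. Rimbp2, a RIM-binding protein, was lower in control mice, at −1.08.

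Calcium sensors were called in both directions, with 3 higher and 4 lower of 11 in STZ mice and 3 higher and 6 lower in control mice. This was not particular to them, as 52.9% (STZ mice) and 53.2% (control mice) of calls over all genes were higher. In STZ mice Syt9, another synaptotagmin, was higher by 2.48 (SE 0.606), but its groups overlapped (means of 41.6 CPM in PVT and 7.5 CPM in pIC). Rph3a, rabphilin, was lower there, at −0.66. Doc2b, a calcium-binding protein of the vesicle cycle, was higher in PVT of control mice by 1.51 (56.8 CPM in PVT, 20.1 CPM in pIC on average), and its relative Doc2a was lower, at −1.12. Among vesicle proteins, 8 of 15 were lower and 0 higher in STZ mice, with Sv2b, a vesicle glycoprotein, at −1.64, and 9 were lower and 2 higher in control mice, with Syp, synaptophysin, at −0.53. Of 14 retrieval genes 9 were lower and 2 higher in each set of mice, with Dnm1, the fission GTPase dynamin-1, at −0.66 in STZ and −0.79 in control mice. Ston2, stonin-2, an adaptor for synaptotagmin retrieval, was higher by 0.81 in control mice.

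**Figure D4:**
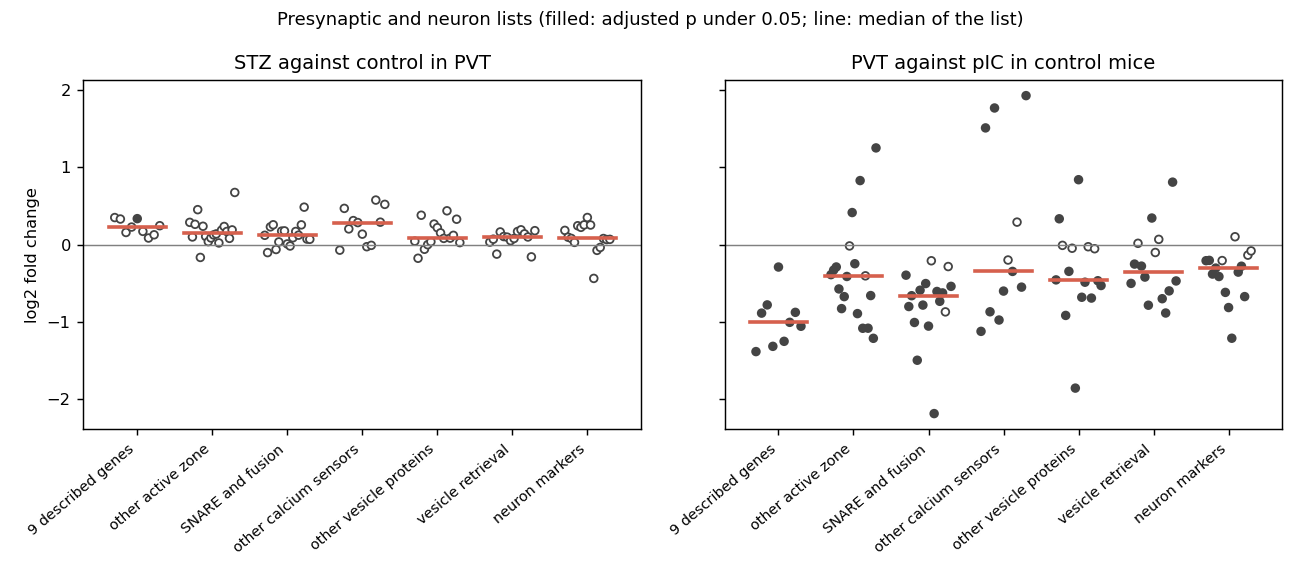
Log2 fold changes (vertical axis) of single genes in 7 lists for STZ against control in PVT (left) and PVT against pIC in control mice (right). Filled points have an adjusted p under 0.05 and lines are list medians. On the left Rims2 is the only filled point. On the right all 9 described genes are filled and below 0, with a median of −1.01, against list medians of −0.30 for neuron markers and −0.66 for SNARE and fusion genes.

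Neuron markers were also lower in PVT. In each set of mice 11 of 15 passed, with a median of −0.24 in STZ and −0.30 in control mice. Examples were Rbfox3, the nuclear antigen NeuN (−1.01 in STZ and −1.21 in control mice), Thy1, a neuronal surface protein (−0.49 in STZ and −0.67 in control mice), and the neurofilament genes Nefm (−0.48 in STZ and −0.82 in control mice) and Nefl (−0.38 in STZ and −0.62 in control mice). Summed neuron markers were 5624 to 6493 CPM in PVT and 6569 to 7419 CPM in pIC of STZ mice, and 4999 to 5982 CPM in PVT and 7127 to 7405 CPM in pIC of control mice. Oligodendrocyte genes were higher in PVT of control mice, 10 of 10, with a sum of 8462 to 10457 CPM in PVT and 3446 to 4675 CPM in pIC, and so were 10 of 10 choroid plexus genes, with a median of 7.35, and 10 of 10 ependymal genes, with a median of 4.38.

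With the neuron marker score as a covariate, 7 of the 9 genes passed in STZ mice, at −0.50 for Pclo to −1.05 for Erc2, and Syn1 did not (−0.42, adjusted p = 0.0617, edgeR). Over all 16489 genes, 3971 were called in that fit. The score (mean log2 CPM) ran there from 8.25 to 8.53 in PVT and from 8.50 to 8.72 in pIC. These ranges met only through PVT STZ replicate 5 (8.53) and pIC STZ replicate 3 (8.50). The other PVT STZ libraries were at 8.25 to 8.41 and the other pIC STZ libraries at 8.60 to 8.72. In STZ mice too, score and region could thus hardly be told apart. In control mice 0 of the 9 genes passed with this covariate, the differences ran from −0.43 for Erc2 to 0.33 for Rims1, and 297 genes in all were called. There the score separated the regions, at 8.12 to 8.41 in PVT and 8.66 to 8.74 in pIC, so score and region cannot be told apart.

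In a ratio of 2 paralogs within 1 library the scaling of the library largely cancels. The mix of tissues in a punch does not cancel, and its part in the ratios was not tested. Of 24 tests (6 ratios in 4 comparisons), 4 passed after adjustment, all between PVT and pIC of STZ mice. The log2 ratio of Rims2 to Rims1 was −0.22 ± 0.25 in PVT and −1.24 ± 0.16 in pIC (SD, n = 6 each), a difference of 1.03 (exact permutation test, two-sided, p = 0.00216, the smallest possible, adjusted p = 0.013). The ratio was thus shifted toward Rims2 in PVT punches, where single libraries ran from −0.53 to 0.10, against −1.39 to −1.02 in pIC. Within PVT it was lower where the cortical excitatory sum was higher. PVT STZ replicates 2 and 4 (1299 and 1163 CPM) were at −0.53 and −0.47. Replicates 1, 3, 5 and 6 (662 to 856 CPM) were at −0.27 to 0.10. PVT control replicates 2 and 3 (1208 and 1147 CPM) were at −0.71 and −0.56. Replicates 1 and 4 of PVT control (520 and 304 CPM) were at −0.07 and 0.33. The log2 ratio of Pclo to Bsn was −0.51 ± 0.15 in PVT and −0.99 ± 0.07 in pIC, a difference of 0.48 with the same p-values. Among PVT libraries it was lowest in STZ replicate 2, at −0.77, and highest in control replicate 4, at 0.11. These were the PVT libraries with the highest and the lowest cortical excitatory sum.

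A pair of ratios went the other way in STZ mice. The log2 ratio of Erc2 to Erc1 was 1.07 ± 0.20 in PVT and 1.65 ± 0.09 in pIC, and that of Syn1 to its paralog Syn2 was −0.27 ± 0.15 in PVT and 0.20 ± 0.14 in pIC. The differences were −0.59 and −0.48, with the same exact permutation p of 0.00216 and adjusted p of 0.013. In control mice these 4 ratios also did not overlap between regions, with differences of 1.11, 0.65, −0.61 and −0.53, each with the smallest exact permutation p that 4 against 4 libraries allow, 0.0286, and an adjusted p of 0.0857. With p already at this floor, the lack of a pass in control mice does not set them apart from STZ mice. Unc13a to Unc13b differed by 0.0657 in STZ and 0.106 in control mice, and Syt1 to Syt2 by −0.36 in STZ and −0.28 in control mice, none of which passed. No ratio passed for STZ against control in either region, where the differences ran from −0.24 to 0.12 and the smallest possible exact p was 0.00476.

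**Figure D5:**
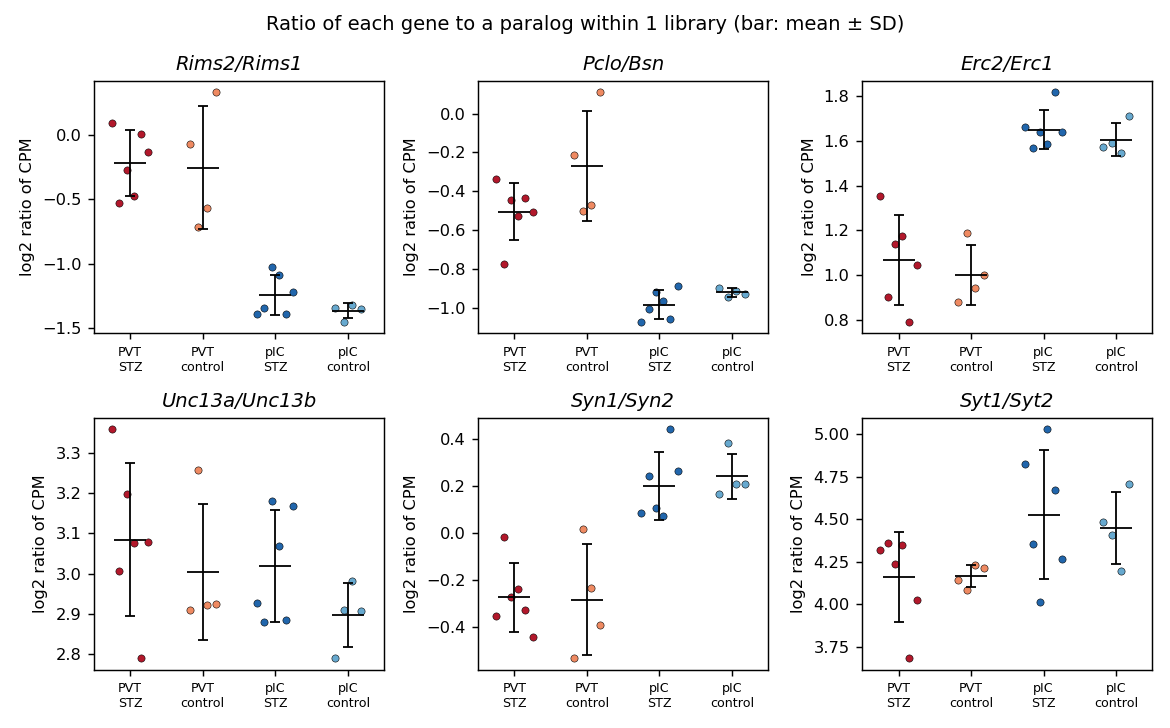
Log2 ratio of the CPM of 2 related genes within 1 library (vertical axis, not starting at 0) for 6 pairs in PVT STZ, PVT control, pIC STZ and pIC control libraries. Points are libraries and bars are the mean and SD. Rims2/Rims1 and Pclo/Bsn lie higher in PVT, Erc2/Erc1 and Syn1/Syn2 lie lower, and within a region the STZ and control libraries overlap in every panel.

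Across the 20 libraries, after the mean of each group was removed, the 9 genes varied together to different degrees. Pearson's r between pairs ran from 0.135 (Rims2 with Syn1) to 0.954 (Rims1 with Bsn), with a median of 0.716 over 36 pairs. With the mean of the other 8 genes, r was 0.962 for Bsn, 0.955 for Rims1, 0.938 for Syt1 and 0.902 for Snap25, and lowest for Erc2 at 0.543 and Rims2 at 0.479. The 5 other genes with the most similar profile, among 10156 with a mean of at least 10 CPM, were Sort1, the sorting receptor sortilin (r = 0.975), Cyfip2, a subunit of the actin-regulating WAVE complex (0.974), Sv2b (0.968), Dlgap1, a postsynaptic scaffold (0.962), and Frrs1l, a factor in AMPA receptor assembly (0.96). An r above 0.8 was seen for 333 of these genes. The mean deviations of the 9 genes were largest in PVT control replicates 2 and 4, at 0.36 and −0.46. They were −0.19 to 0.18 in the other libraries, so these 2 libraries weigh most in r. All genes of a library share its dissection and its scaling, so these values describe the libraries.

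Some reads of these genes could be shared with neighbours. In the GENCODE M21 annotation 3.92% of the exon bases of Unc13a overlap Colgalt1 on the other strand, 2.21% and 1.91% of Pclo overlap Gm26954 and Gm26918, 1.09% of Erc2 overlaps Gm45645, and 0.273% of Syn1 overlaps Araf. Bsn shares 0.358% with Gm47303 on the same strand. The strand setting of the counting is not given in the sources used here, so reads in these bases cannot be assigned with certainty.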

How the data were processed

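The deposited table holds raw counts, whole numbers per Ensembl gene and library, and the genome build is GRCm39 (mm39) per the submitters' processing notes. Libraries were poly(A)-selected and stranded per the labels' protocols. No source used here names the aligner, counter, strand setting or annotation. Symbols of 51884 identifiers and exon lengths came from GENCODE M21, and promoters from RefSeq, both of build GRCm38.p6, so no positions of the files' build are given.

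Counts were tested with edgeR 4.0.16 (R 4.3.3), by its quasi-likelihood test with robust estimates, after TMM scaling and removal of low genes by filterByExpr (at least 10 counts, total of 15), fitted to the groups compared, or to all 20 libraries for the interaction. Benjamini-Hochberg adjustment was over all genes tested, with calls under 0.05. SE was taken as the size of the log2 fold change over the square root of the F statistic. Log2 CPM used a prior count of 2. Paralog ratios (0.5 CPM added) were compared by exact permutation tests. The members and lists were chosen with earlier results of these data known. The rule named all 9 genes, up to 4 called genes of each list by smallest p and the 5 most similar genes. Values had been seen when Erc1 and the genes that only DESeq2 called were picked out. The edgeR step was tested on simulated data: 48% of genes changed 1.5 fold in PVT and 72% in pIC were recovered, and 8% and 24% of genes changed 1.25 fold. No 2 libraries of a group were duplicates (lowest chi-square per degree of freedom 3.793 over 42 pairs). DESeq2 1.42.0, other scalings, no filter, a neuron score (mean log2 CPM of 15 markers), replicate blocks, glmTreat (limma 3.58.1 was loaded) and leaving out each library were alternatives.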

Additional observations from a re-analysis of the deposited data

Results flagged for a closer look

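Among 60 groups of libraries tested for a single outlying library (9 genes and 6 paralog ratios in 4 groups), 2 had one, or 3.33%, where chance gives about 1 in 20. Syt1 in pIC STZ libraries was lowest in replicate 3, at 1540 CPM, with the nearest other library at 1796 CPM and the highest at 1943 CPM. This library also had the highest striatal sum of pIC, 3687 CPM, and the lowest cortical excitatory sum, 1942 CPM. The log2 ratio of Unc13a to Unc13b in PVT control libraries was highest in replicate 2, at 3.26, with the other libraries at 2.91 to 2.92.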

How the results depend on the processing

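Each library held at least 1450 reads of each of the 9 genes, and each region had 6 STZ and 4 control libraries. The count of called genes for STZ in PVT, 1 (Rims2), stayed 1 under RLE and upper quartile scaling, DESeq2, no filter and a fit of all 20 libraries, was 0 with the neuron score and 0 with a replicate block (Rims2 0.33, adjusted p = 0.136), and ran from 0 to 1 when 1 library was left out. The other alternatives of Rims2 gave an adjusted p of 0.00196 (DESeq2) to 0.0466 (upper quartile). The count for pIC and for the interaction was 0 under every alternative run. PVT against pIC in STZ mice gave 0 with glmTreat and 8 to 9 with 1 library left out, instead of 8, and in control mice 0 with the neuron score, 0 with glmTreat and 8 to 9 with 1 left out, instead of 9. Upper quartile scaling gave 12.2% instead of 22.9% higher among all calls for STZ in PVT. All genes called for STZ numbered 904 (PVT) and 468 (pIC) by DESeq2 instead of 353 and 226, 72 in PVT with the block, 178 with the neuron score, 679 in the fit of all libraries, and 143 to 343 (PVT) and 128 to 272 (pIC) with 1 library left out. For the regions all genes called were 3971 (STZ mice) and 297 (control mice) with the neuron score and 594 (STZ mice) and 873 (control mice) with glmTreat, instead of 8089 (STZ mice) and 7948 (control mice). For the interaction 4 were called by DESeq2 and 1 with no filter, instead of 0.

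Signs changed in the following cases, none of them called under the alternative, and the cause was not tested. With the neuron score, Syn1 for STZ in PVT was −0.0482, Unc13a and Snap25 for STZ in pIC were 0.00965 and 0.0188, the control-mouse region differences of Rims1, Bsn, Snap25 and Syn1 were 0.327, 0.0267, 0.0387 and 0.00601 (called as lower without the score), and the interaction was −0.0957 for Rims1, −0.0048 for Bsn, −0.00513 for Pclo, −0.039 for Snap25 and −0.088 for Syn1. Unc13a for STZ in pIC was 0.000447 with the replicate block. With 1 library left out, Syn1 in PVT ran from −0.0301 to 0.179, Pclo in pIC from −0.00978 to 0.0634, Unc13a in pIC from −0.0395 to 0.0238 and the interaction of Rims1 from −0.0301 to 0.407. For STZ in PVT the ratio differences ran from −0.116 to 0.231 for Rims2/Rims1, from −0.0727 to 0.111 for Syn1/Syn2 and from −0.0458 to 0.0902 for Syt1/Syt2, and in pIC from −0.0882 to 0.00724 for Syn1/Syn2 and from −0.0218 to 0.181 for Syt1/Syt2.

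Libraries of the 2 regions share labels and STZ and control libraries share numbers. Deviations of same-number STZ and control libraries correlated at −0.3 to 0.536, and the numbers were not taken to pair libraries. Those of same-label libraries correlated at −0.118 to 0.273 (5 of 10 over 0.1, with 5 of 10 PVT libraries most like their own label). Whether equal labels in PVT and pIC mark the same mouse is not given in the sources used here. Apart from the replicate block, the region comparisons and the interaction treated libraries as unpaired. In a sign-flip test within labels (replicate block) the differences of the 4 paralog ratios of STZ mice stayed at 1.03, 0.48, −0.59 and −0.48, and 0 passed (exact adjusted p = 0.188 for each), but with 6 pairs the smallest exact p is 0.0312 and the smallest adjusted p over 24 tests 0.125, so none could have passed.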
